A study of Mus musculus with 173 samples.

Results

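The cells described here are the cycling cells among the C libraries of a single-cell RNA-seq series from the adult mouse dentate gyrus. They were chosen by a cycle score, the mean log2(TPM + 1) of the 8 genes Mki67, Top2a, Cdk1, Ccnb1, Cenpf, Birc5, Nusap1 and Tpx2, where TPM is transcript abundance scaled for gene length and for the library's total. A score of at least 3 made a cell cycling, which held for 19 libraries, all of them C libraries. A score below 1 made it non-cycling, which held for 84 C libraries, and the other 39 C libraries lay between these limits. Each library is the RNA of 1 cell of a C57BL/6 mouse of 8 to 12 weeks, and cycling, intermediate and non-cycling cells share this strain, age and tissue. Besides these 19, 84 and 39 C libraries the table holds 26 N and 4 R libraries. The labels do not spell out the title letters, and they name no genotype, animal or batch. The table also has a row for the fluorescent protein eCFP, whose promoter and driver the labels do not give. The series was made to describe quiescent hippocampal stem cells and the cells that they give rise to.

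Neural stem cells of the dentate gyrus are mostly quiescent. When they are activated they re-enter the cell cycle, and they give rise to intermediate progenitors that divide further before they become granule neurons. In any dividing cell, genes of DNA replication are transcribed around the G1 to S transition under E2F factors. Genes of mitosis are transcribed later, in G2, through the MuvB complex with B-Myb and FoxM1. Both groups are largely silent in quiescent cells.

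The score ran from 3.0 through a median of 8.13 to 10.12 in cycling cells, against 0.00 through 0.61 to 0.97 in non-cycling cells. Just inside the upper limit lay C120 (3.0) and C110 (4.20), and just outside it C77 (2.96) and C132 (2.90). At the lower limit, C101 (0.97) and C141 (0.96) were counted as non-cycling and C60 (1.02) and C103 (1.04) were not. Top2a, the topoisomerase that untangles replicated DNA, had 2.57 to 2095 TPM in cycling cells (median 744.6), against 0 to 1.90 TPM in non-cycling cells (median 0), so the sets did not overlap in this score gene. Mki67, the proliferation antigen, reached 1 TPM in 17 of 19 cycling cells and in 1 of 84 non-cycling cells. These values chose the cells and are not a finding. No N or R library reached the cycling limit, with a highest score of 1.85 in N and 1.43 in R.

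**Figure D1:**
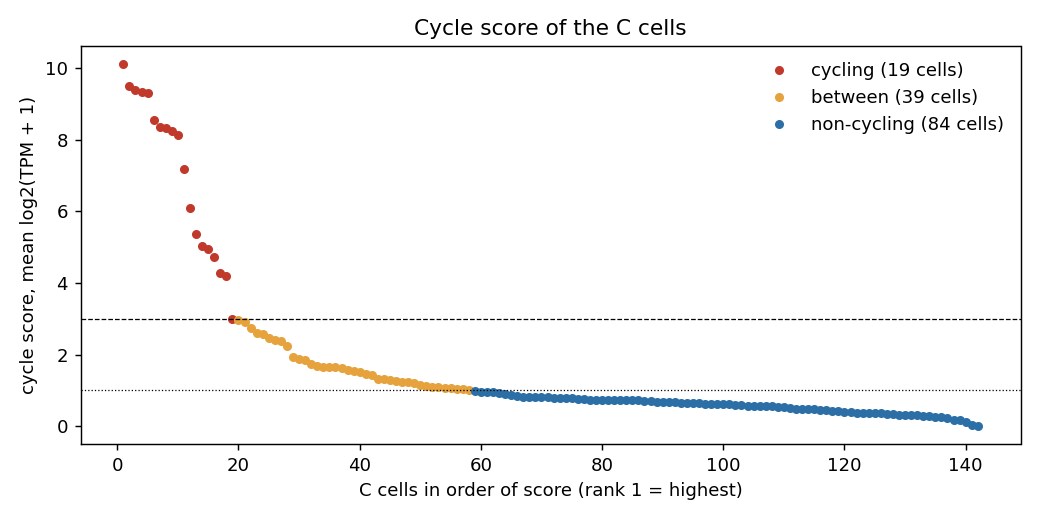
Cycle score (mean log2(TPM + 1) of 8 genes) of each C cell, ranked from the highest score at the left. Dashed and dotted lines mark the limits of 3 and 1, and the 19 cycling cells reach 10.12 while the non-cycling cells stay at or below 0.97.

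Each of the 2 sets counts as 1 sample, because cells of unnamed animals are not replicates, and the sets were chosen from the same values. No test was possible, and SDs are between cells. TPM keeps no record of sequencing depth, so depth is unknown. Genes seen at 1 TPM or more numbered 3918 ± 839 in cycling cells and 3408 ± 699 in non-cycling cells (SD, n = 19 and 84), and the part of this gap in the differences below was not tested. Genes are called higher or lower where the mean log2(TPM + 1) of cycling cells minus that of non-cycling cells was at least 2 or at most -2. Of 11999 genes outside the score, 758 were higher (6.32%) and 174 were lower (1.45%), in all 932 genes (7.77%). The median difference over all 11999 genes was 0.10. Of the 758 higher genes, 648 were seen at 1 TPM in at least 50% of cycling cells and 254 in at least 50% of non-cycling cells. Of the 174 lower genes, 161 were seen in at least 50% of non-cycling cells.

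Libraries with markers of other cell types stood apart before any result is read. C113 and C27, among the 3 cycling cells of highest score, carried Pdgfra, the PDGF receptor of oligodendrocyte precursors, at 1960 and 1162 TPM. The same cells carried Olig1, a transcription factor of that lineage, at 286 and 968 TPM. In the other 17 cycling cells Pdgfra stayed below 1 TPM and Olig1 reached at most 1.48 TPM. Of the 8 precursor markers, Sox10 and Neu4 were below 1 TPM in every cycling cell, and the summed level of the 8 ran from 0 to 3044 TPM in cycling cells (median 0.90) and from 0 to 3715 TPM in non-cycling cells (median 1.44). C140 had an endothelial list mean of 5.07 and 1169 TPM of Ly6c1, an endothelial surface antigen. It also had the highest erythroid (4.25), mural (3.18), mature neuron (2.56) and microglia (1.77) list means of the cycling cells. Of the 8 endothelial markers, Pecam1 and Tek were below 1 TPM in every cycling cell, and Cldn5 and Cdh5 reached at most 5.25 and 13.8 TPM. The highest values of Flt1, Esam and Slco1a4 in cycling cells were 47.3, 54.3 and 55.4 TPM. The endothelial sum over 5 genes ran from 0 to 1285 TPM in cycling cells and from 0 to 2162 TPM in non-cycling cells. Among non-cycling cells, C129 had a mural list mean of 9.38, and C139 had an endothelial mean of 7.10 and a precursor mean of 7.54. Without C113, C27 and C140, which were singled out after their values were seen, 839 genes were higher and 183 lower, with 695 and 159 shared with the counts above.

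The 3 mitotic lists had the largest medians of all lists outside the score. Of 27 measured mitotic cyclins, kinases and regulators of the anaphase-promoting complex, 21 were higher and 0 lower (median difference 3.92), beside 6.32% of all genes higher. Of 27 kinetochore and centromere genes 25 were higher (3.99). Of 25 genes of the spindle, kinesins and cytokinesis 23 were higher (4.02). The mean over these 79 genes ran from 1.14 to 7.28 in cycling cells and from 0.18 to 0.92 in non-cycling cells, so all 19 cycling cells lay above the highest non-cycling cell. The 8 score genes belong to the same programme, so this separation only describes the chosen cells.

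Among these genes Pbk, a mitotic kinase, had the largest difference (8.37). It had 2.89 to 3919 TPM in cycling cells (median 1431), against 0 to 7.52 TPM in non-cycling cells (median 0), and 17 of 19 cycling cells exceeded every non-cycling cell. Cks2, a small subunit that binds cyclin-dependent kinases, had a median of 1474 TPM in cycling cells and 0 TPM in non-cycling cells (difference 8.27). It was not in every cycling cell: 3 of 19 were below 1 TPM. Spc25, a part of the Ndc80 complex that ties kinetochores to microtubules, had a median of 515.2 TPM in cycling cells and a highest value of 2.70 TPM in non-cycling cells (difference 7.26). Cdca8, the borealin subunit of the chromosomal passenger complex, differed by 7.09. Prc1, which bundles the central spindle, had 1.55 to 2192 TPM in cycling cells (median 606.9), against 0 to 35.1 TPM in non-cycling cells (median 1.70). Ube2c and Mad2l1, which act with and against the anaphase-promoting complex, differed by 6.13 and 6.01. Racgap1 and Ckap2, of cytokinesis and of the spindle, differed by 6.10 and 6.14, and neither exceeded 2.16 TPM in a non-cycling cell.

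Genes that shape mitotic chromosomes and the nuclear envelope followed. Of 21 such genes 18 were higher and 0 lower (median 3.51). Smc2, a condensin subunit, had 7.30 to 1165 TPM in cycling cells (median 372.6), against 0 to 375.2 TPM in non-cycling cells (median 0.28). Tmpo, a lamina-associated protein, had 85.1 to 1245 TPM in cycling cells and a median of 0.89 TPM in non-cycling cells, whose highest value was 704.7 TPM. Of 84 non-cycling cells, 66 lay below the lowest cycling cell. Kpna2, an importin that carries cargo into the nucleus, had the largest difference of the list (6.93).

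Replication genes were higher on average but were spread unevenly over the cycling cells. All 17 measured genes of origin licensing and the helicase had a difference above 0, and 8 were higher (median 1.66). Of 25 genes of polymerases and the fork 13 were higher (2.19), and of 21 nucleotide synthesis genes 11 (2.20), with 0 lower in these lists. Mcm6, a subunit of the replicative helicase, had 0 to 1129 TPM in cycling cells (median 196.1), against 0 to 1381 TPM in non-cycling cells (median 0.42), so the ranges overlapped fully. Pcna, the sliding clamp, had a median of 702.1 TPM in cycling cells and 1.71 TPM in non-cycling cells, with a highest value of 6408 TPM in cycling cells and 2756 TPM in non-cycling cells. Rrm1 and Rrm2 are the subunits of ribonucleotide reductase, which makes deoxynucleotides. Rrm1 was seen at 1 TPM in 18 of 19 cycling cells and 19 of 84 non-cycling cells, and Rrm2 in 14 and 16. Rfc4, of the clamp loader, exceeded every non-cycling cell (highest 99.3 TPM) in 12 cycling cells and was below 1 TPM in the other 7.

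Chromatin genes tied to replication were higher in 13 of 19 cases, with 0 lower (median 2.66). H2afz, the histone variant H2A.Z, had 3464 to 20365 TPM in cycling cells (median 9128), against 0 to 5779 TPM in non-cycling cells (median 129.9). It was above every non-cycling cell in 16 of 19 cycling cells. Uhrf1, which brings the maintenance methyltransferase to newly copied DNA, differed by 4.05, and Ezh2, the histone methyltransferase of Polycomb complex 2, by 3.60. Of 18 DNA repair and checkpoint genes 4 were higher and 0 lower (1.31). A set of 68 core histone genes, added by their symbols, had 24 members past the filter on low values, of which 10 were higher and 0 lower. Hist1h2ao, a replication-dependent H2A gene, had a median of 2539 TPM in cycling cells and 0 TPM in non-cycling cells. It was below 1 TPM in 4 of 19 cycling cells. Histone copies of near-identical sequence share reads, so single values in this family are uncertain.

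**Figure D2:**
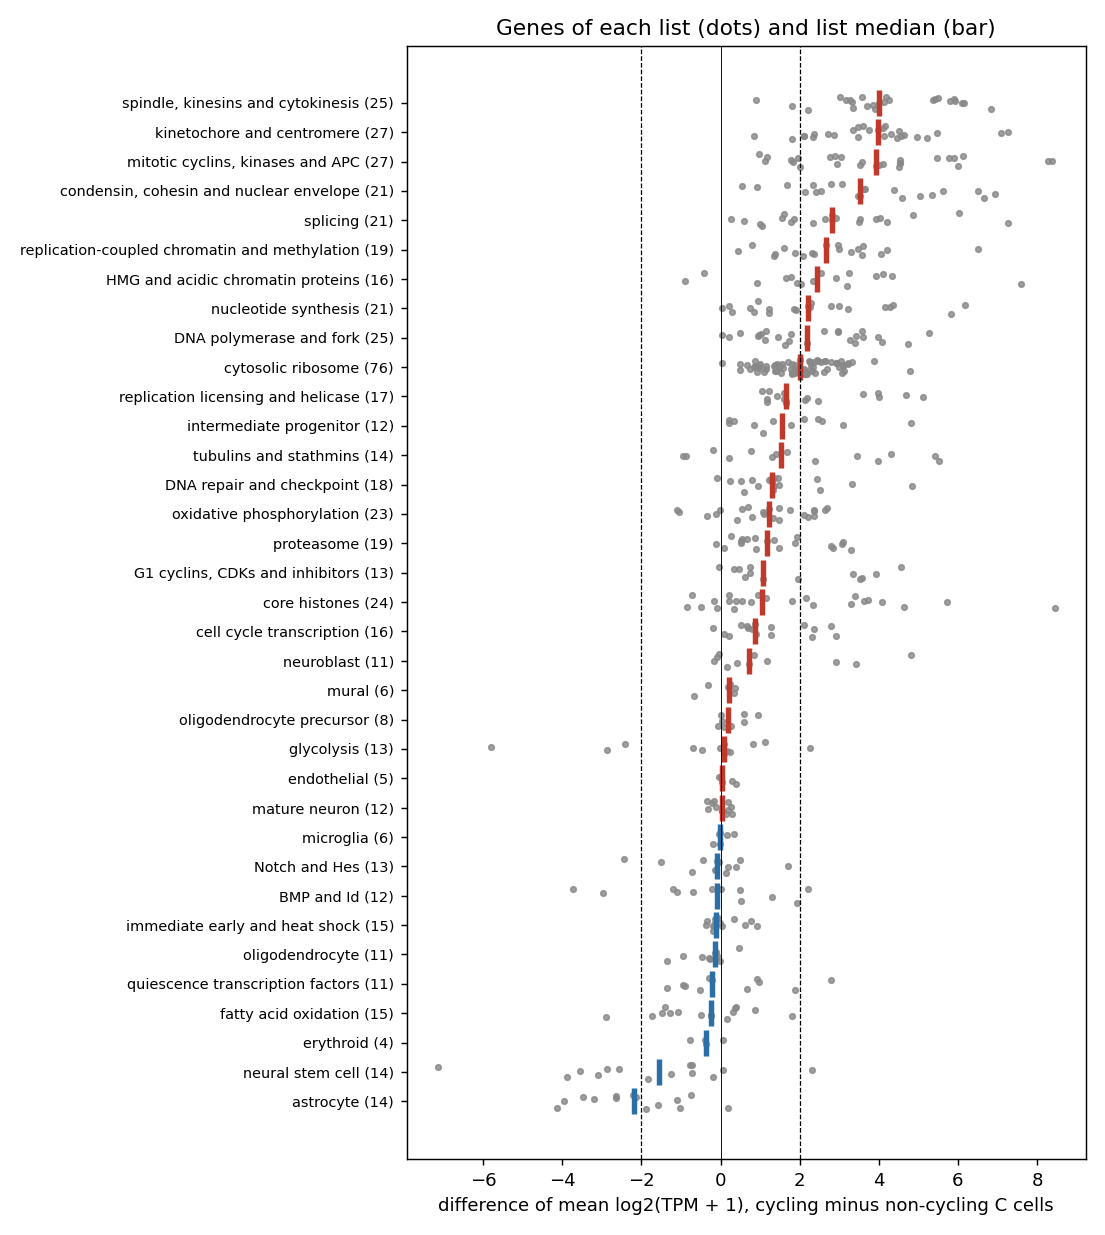
Difference of mean log2(TPM + 1), cycling minus non-cycling C cells, for each gene past the filter (dots, number in brackets) with the list median (bar). Dashed lines mark differences of -2 and 2, and mitotic lists lie furthest to the right (median up to 4.02) while the astrocyte list lies furthest to the left (-2.18).

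The promoters of these genes hold letters that the choice of cells did not use, and a few are shown because mitotic and replication genes differ in them. Sequences are from RefSeq (GRCm38.p6) and run from 250 bases before to 50 bases after the transcript start. Shown are the genes of largest difference in 5 lists among those with an entry in the table. Capitals mark 3 kinds of letters on either strand. The cell cycle homology region (CHR) was searched as TTTGAA and also as TTTAAA. The NF-Y box was searched as CCAAT. E2F-type letters were searched as TTCCCGC, also as TTGGCGC, and also as TTCGCGC. Where TTGGCGC and the reverse of TTCGCGC overlap, both were counted.
Spc25 (chr2:69206164-69206463, minus strand): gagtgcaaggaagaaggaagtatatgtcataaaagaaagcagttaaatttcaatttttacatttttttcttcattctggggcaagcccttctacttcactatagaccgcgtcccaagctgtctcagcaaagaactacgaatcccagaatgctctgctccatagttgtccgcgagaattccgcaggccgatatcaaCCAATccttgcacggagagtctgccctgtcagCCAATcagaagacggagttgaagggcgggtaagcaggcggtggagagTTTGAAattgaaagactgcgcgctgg
Prc1 (chr7:80294201-80294500, plus strand): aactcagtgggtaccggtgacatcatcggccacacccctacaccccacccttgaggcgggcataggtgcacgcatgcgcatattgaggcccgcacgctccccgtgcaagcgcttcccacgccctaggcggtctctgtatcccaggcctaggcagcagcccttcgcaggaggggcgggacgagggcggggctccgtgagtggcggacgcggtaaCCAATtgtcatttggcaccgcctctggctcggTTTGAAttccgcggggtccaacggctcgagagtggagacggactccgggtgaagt
Cks2 (chr13:51644982-51645281, plus strand): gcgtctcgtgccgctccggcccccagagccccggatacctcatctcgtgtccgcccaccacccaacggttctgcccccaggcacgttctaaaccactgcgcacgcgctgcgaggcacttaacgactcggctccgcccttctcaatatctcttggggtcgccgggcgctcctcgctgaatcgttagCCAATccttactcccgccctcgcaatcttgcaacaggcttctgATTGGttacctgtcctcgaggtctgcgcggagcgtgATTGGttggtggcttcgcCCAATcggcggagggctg
Mcm6 (chr1:128359656-128359955, minus strand): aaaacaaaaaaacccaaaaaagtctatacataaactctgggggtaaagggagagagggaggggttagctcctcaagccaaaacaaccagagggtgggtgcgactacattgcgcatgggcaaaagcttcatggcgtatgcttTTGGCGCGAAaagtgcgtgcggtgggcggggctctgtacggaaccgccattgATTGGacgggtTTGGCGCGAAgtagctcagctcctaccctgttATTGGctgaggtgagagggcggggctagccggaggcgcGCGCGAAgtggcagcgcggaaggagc
Rrm1 (chr7:102441445-102441744, plus strand): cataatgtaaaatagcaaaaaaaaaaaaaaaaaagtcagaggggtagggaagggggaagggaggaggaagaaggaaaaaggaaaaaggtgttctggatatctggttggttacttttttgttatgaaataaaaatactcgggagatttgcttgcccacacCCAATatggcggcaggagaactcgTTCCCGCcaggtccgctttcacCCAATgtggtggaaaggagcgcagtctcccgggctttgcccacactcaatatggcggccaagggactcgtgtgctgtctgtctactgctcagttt

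Spc25 and Prc1 each hold the CHR letters TTTGAA close to the start, with the first base 24 bases after it in Spc25 and 5 bases before it in Prc1. Spc25 has 2 CCAAT boxes upstream and Prc1 has 1. Cks2 has 4 CCAAT boxes and no CHR letters in this window. Mcm6 has 5 E2F-type matches, of which 2 pairs overlap, 2 CCAAT boxes and no CHR letters, and Rrm1 has 1 E2F-type match and 2 CCAAT boxes. Over all promoters of the mitotic lists, 65.3% of 75 held CHR letters, against 20.4% of the 12153 promoters of all genes tested and 27.6% of all 32851 promoters in the table. Within 50 bases of the start the CHR shares were 54.7% for mitotic lists and 5.44% for all genes tested. CCAAT was held by 73.3% of mitotic promoters and 38.2% of those of all genes tested. E2F-type letters were held by 33 of the 60 promoters of the S phase lists, against 15 of the 75 mitotic promoters, 14.1% of those of all genes tested and 8.07% of all promoters. Over the genes called higher as a whole, the shares were 29.2% for CHR, 48.9% for CCAAT and 24.7% for E2F-type letters. Over the genes called lower they were 24.1%, 40.6% and 12.8%. Of the 79 mitotic genes 67 had a promoter in the table, as did 53 of the 63 S phase genes. These are counts of letters, not of bound sites, and the lists were drawn up from known function.

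Cycling cells were not alike in the balance of S phase and mitotic genes. The mean over 63 S phase genes ran from 0.58 to 5.20 in cycling cells (median 3.22), against 0.32 to 2.67 in non-cycling cells (median 0.95), and 13 of 19 cycling cells lay above every non-cycling cell. C27, C43, C140 and C113 had higher mitotic means (4.43, 5.61, 5.73 and 7.28) than S phase means (0.58, 1.68, 2.14 and 2.28). Of these, C27, C140 and C113 are the libraries with markers of other cell types described above. C27, the lowest in S phase mean, lay below the cycling median of the mitotic mean (4.97). It also had the fewest genes at 1 TPM or more of the cycling cells (2597). C126, C83 and C120 had the opposite balance, with S phase means of 5.20, 3.95 and 3.12 and mitotic means of 3.18, 2.08 and 1.14. C75, C121 and C125 were high in both, with S phase means of 4.89, 4.60 and 5.15 and mitotic means of 6.24, 6.60 and 5.69. C110 and C59 lay below the cycling median in both, with S phase means of 1.33 and 1.51 and mitotic means of 1.62 and 3.57.

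Single cyclins and kinases showed the same spread. The genes Cdc20, Plk1, Ccna2 and Ccne2 were picked for this description after their values were seen. Cdc20, the activator of the anaphase-promoting complex, was at 10 TPM or more in 9 of 19 cycling cells, with 1037, 1002 and 903.2 TPM in C43, C140 and C111. Ccne2, the cyclin of the G1 to S transition, was at 10 TPM or more in 6 of 19, with 478.9, 444.0 and 251.9 TPM in C126, C57 and C59. No cycling cell had both at that level. Plk1, a kinase of mitotic entry, was at 10 TPM or more in 9 cells and listed at 0 in C140 and C104, whose Cdc20 was 1002 and 295.1 TPM. Ccna2, the cyclin of S and G2, was at 10 TPM or more in 15 cells.

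**Figure D3:**
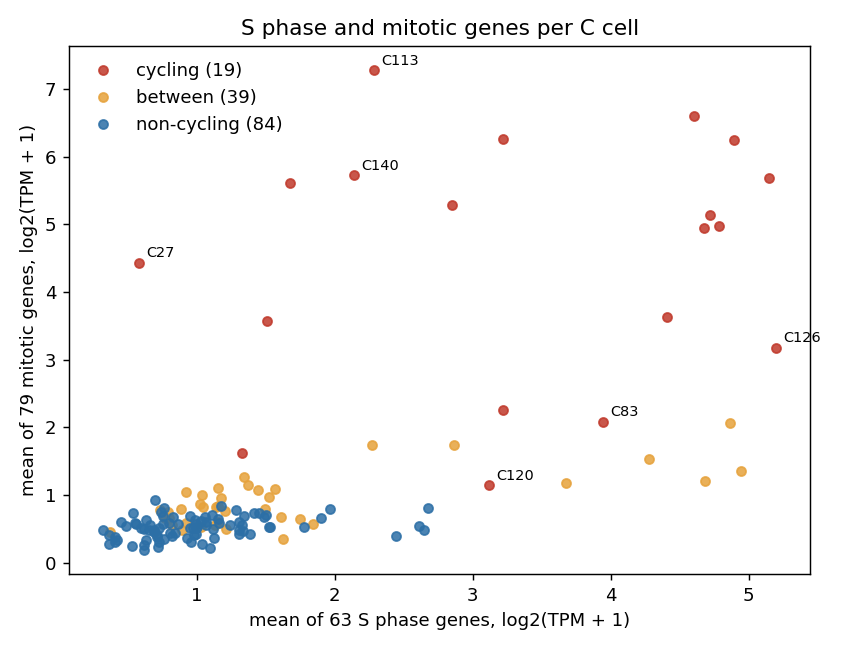
Mean log2(TPM + 1) of 79 mitotic genes (y axis) against that of 63 S phase genes (x axis) in each C cell, coloured by score set. Non-cycling cells stay below a mitotic mean of 0.92 and reach an S phase mean of 2.67. Most cycling cells spread over the upper and right parts, while C110 lies at an S phase mean of 1.33 and a mitotic mean of 1.62.

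The cells between the limits held some with S phase genes and mitotic means near the low end of the cycling range. Of these 39 cells, 5 had an S phase mean of at least 3, as did 12 of 19 cycling and 0 of 84 non-cycling cells. They were C127 (4.95), C61 (4.87), C95 (4.69), C123 (4.28) and C72 (3.67), with mitotic means from 1.18 to 2.06. These mitotic means lay above the highest non-cycling cell (0.92) and within the cycling range of 1.14 to 7.28. C95 and C61 had neural stem cell list means of 6.95 and 6.11, while C127 and C123 had intermediate progenitor list means of 5.31 and 5.30. The score genes belong largely to G2 and mitosis, and these cells stayed below its limit of 3.

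Upstream of these programmes, regulators of G1 were higher in part. Of 13 measured G1 cyclins, kinases and inhibitors 5 were higher and 0 lower (median 1.07). Ccnd2, the D cyclin of neural progenitors, had 2.0 to 1804 TPM in cycling cells (median 669.4), against 0 to 1600 TPM in non-cycling cells (median 21.3), a difference of 3.92. Only C27 and C140 among the cycling cells were below 10 TPM, at 2.0 and 3.86 TPM. Cdk4, the partner kinase of D cyclins, differed by 4.56, with medians of 939.8 TPM in cycling cells and 5.08 TPM in non-cycling cells. Ccnd1 was seen in few cells of either set, namely 4 of 19 cycling cells and 13 of 84 non-cycling cells. Cdkn1a, the gene of the inhibitor p21, reached 1 TPM in 3 of 19 cycling and 3 of 84 non-cycling cells, and Cdkn1c, the gene of the inhibitor p57, in 0 and 1. Of 16 cell cycle transcription factors 5 were higher, led by Mycn (2.93), while Myc was listed at 0 in every cycling cell and reached at most 4.57 TPM in non-cycling cells.

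A broader set of growth genes was also higher. Of 16 genes of high mobility group and acidic chromatin proteins 10 were higher and 0 lower (median 2.43). Hmgb2, a DNA-bending protein of dividing cells, had 444.3 to 4260 TPM in cycling cells (median 1820), against 0 to 1018 TPM in non-cycling cells (median 3.12). Its SD was 0.83 in cycling cells and 3.05 in non-cycling cells on the log2 scale, and 16 of 19 cycling cells were above every non-cycling cell. Hmgn2, a nucleosome-binding protein, had a median of 20773 TPM in cycling cells and 1518 TPM in non-cycling cells. Stmn1, which destabilises microtubules, had 2091 to 15543 TPM in cycling cells (median 7026) and a median of 421.3 TPM in non-cycling cells, whose highest value (14601 TPM) lay within the cycling range. Tubb5, a beta-tubulin, had 371.5 to 6440 TPM in cycling cells, against 0 to 4209 TPM in non-cycling cells (difference 5.51), while Tubb2b, a neural beta-tubulin, differed by -0.94. Of 14 measured tubulins and stathmins, 6 were higher.

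**Figure D4:**
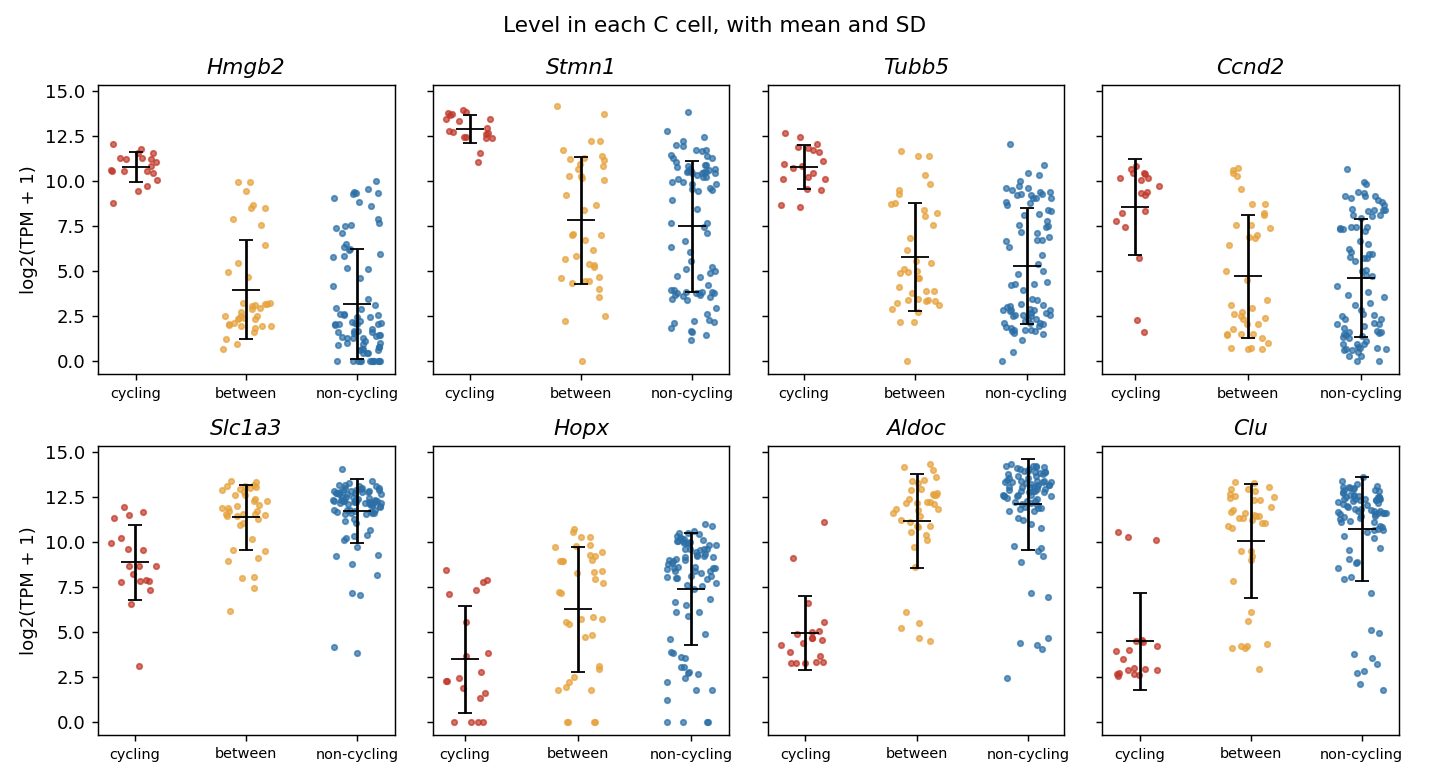
Level in each C cell (dots, log2(TPM + 1)) of 8 genes by score set, with mean and SD. Hmgb2 and Stmn1 are high with a small spread in cycling cells (SD 0.83 and 0.78) and widely spread in non-cycling cells, and every cycling cell is below the non-cycling median in Slc1a3, Hopx, Aldoc and Clu.

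RNA processing and protein synthesis genes lay on the same side. Of 21 splicing genes 13 were higher and 0 lower (median 2.81). Snrpg, a core protein of spliceosomal snRNPs, had medians of 6702 TPM in cycling cells and 0 TPM in non-cycling cells, and Hnrnpa1, an RNA-binding protein, differed by 6.03. Of 76 cytosolic ribosomal protein genes, a set added by symbol, 38 were higher and 0 lower (2.02). The ribosome list mean was 8.78 ± 1.28 in cycling cells and 6.78 ± 1.47 in non-cycling cells (SD, n = 19 and 84), and no cycling cell was above every non-cycling cell. C27 had the lowest ribosome mean of the cycling cells, 4.83. With log2 of the mean TPM of each set in place of the mean log2 value, the median differences were 0.97 for splicing, 0.51 for ribosomal and 1.34 for high mobility group genes. Of 19 proteasome genes 5 were higher (1.18) and of 23 oxidative phosphorylation genes 7 (1.23). Over the alternative settings these 2 medians ran from 0.06 to 1.55 and from 0.19 to 1.82. The median summed level of the proteasome genes was 9520 TPM in cycling cells and 8752 TPM in non-cycling cells. For oxidative phosphorylation genes it was 15921 TPM in cycling cells and 14637 TPM in non-cycling cells. Glycolysis went both ways, with 1 gene higher and 3 lower of 13 (median 0.08): Pgam1, phosphoglycerate mutase, differed by 2.27 and Aldoa, the aldolase of muscle and many other cells, by -5.79. Ribosomal, tubulin, histone and aldolase genes have close copies or pseudogenes, and their values depend on how reads were divided among them.

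Genes of quiescent stem cells and astrocytes were lower in cycling cells. Of 14 measured stem cell genes 6 were lower and 1 higher (median -1.55), and of 14 astrocyte genes 8 were lower and 0 higher (median -2.18), beside 1.45% of all genes lower. Aldoc, the aldolase of astroglia, had the lowest difference of all genes tested (-7.15). It had 8.46 to 2190 TPM in cycling cells (median 22.4), against 4.45 to 20247 TPM in non-cycling cells (median 7335), and 70 of 84 non-cycling cells exceeded the highest cycling cell. Slc1a3, the glial glutamate transporter, had medians of 404.4 TPM in cycling cells and 4812 TPM in non-cycling cells, and was seen in every cell of both sets. Hopx, a homeodomain protein of quiescent stem cells, had a median of 4.39 TPM in cycling cells (highest 346.9) and 365.9 TPM in non-cycling cells. Gfap, the glial intermediate filament, had medians of 3.18 and 213.9 TPM in cycling and non-cycling cells, with ranges of 0.72 to 172.9 TPM and 0 to 3219 TPM. Apoe, a lipid carrier, had medians of 287.4 TPM in cycling cells and 3908 TPM in non-cycling cells. For Aldoc, Slc1a3, Hopx, Gfap and Apoe, all 19 cycling cells were below the non-cycling median.

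Not all stem cell genes followed. Vim, the filament vimentin, was the member higher in cycling cells, with 1.54 to 1918 TPM (median 371.6) in them, against 0 to 2463 TPM (median 96.2) in non-cycling cells. Sox2, a transcription factor of stem and early progenitor cells, differed by -0.73, and Nes, the filament nestin, by -0.19, with 6 of 19 cycling cells and 28 of 84 non-cycling cells at 1 TPM. The eCFP row averaged 12.31 ± 1.09 in cycling cells and 12.99 ± 1.18 in non-cycling cells on the log2 scale (SD, n = 19 and 84), so both sets were high in it.

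Astrocyte genes among those furthest below were Mlc1, a membrane protein of astrocyte endfeet (-4.14), Slc1a2, the main glutamate transporter (-3.48), and Gja1, connexin 43 (-3.19). Outside the lists, the genes furthest below were Clu, Gstm1, Car2, Pla2g7, Gstm3, S100a1, Sparcl1, Slc25a18, Ppap2b and Ass1, with differences from -6.25 to -4.33. Clu, the secreted chaperone clusterin, had medians of 10.3 TPM in cycling cells and 3301 TPM in non-cycling cells. Gstm1 and Gstm3 are glutathione transferases of a family with close copies, Car2 is a carbonic anhydrase, and Ppap2b is a lipid phosphate phosphatase. Of signalling lists, 1 of 13 Notch and Hes genes was lower, the receptor Notch2 (-2.44), with a list median of -0.09. Of 12 BMP and Id genes 2 were lower and 1 higher, with a median of -0.10. Id4, an inhibitor of proneural factors, had the lowest difference of these (-3.73) and was seen in 8 of 19 cycling cells and 76 of 84 non-cycling cells.

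Within the cycling set, a few cells had higher levels of some of these genes than the rest. Clu was at 1500, 1242 and 1087 TPM in C121, C120 and C83 and at most 22.5 TPM in the other cycling cells. All of these values were below the non-cycling median of 3301 TPM. C121, C120 and C83 had stem cell list means of 6.09, 5.44 and 6.51, and C111 and C43 had 6.37 and 6.03. The non-cycling median of this mean was 6.52. In C111 and C43, however, Aldoc was at 8.46 and 9.07 TPM and Clu at 6.60 and 5.58 TPM. C125 had the lowest stem cell mean (2.70) and an astrocyte list mean below that of every non-cycling cell. C120 and C83 had mitotic means of 1.14 and 2.08, whereas C121, C111 and C43 had mitotic means from 5.28 to 6.60.

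Progenitor genes were higher in part of the cycling cells. Of 12 intermediate progenitor genes 5 were higher and 0 lower (median 1.56). The list mean ran from 0.19 to 5.71 in cycling cells and from 0.08 to 5.49 in non-cycling cells. It was at least 4 in 6 of 19 cycling cells and 3 of 84 non-cycling cells, and 1 cycling cell lay above every non-cycling cell. Sox11, a neurogenic transcription factor, had the largest difference (4.80), with 0.14 to 1427 TPM in cycling cells (median 123.4), against 0 to 2384 TPM in non-cycling cells (median 0.49). Eomes, the factor Tbr2 that marks intermediate progenitors, was seen in 9 of 19 cycling cells (47.4%, exact 95% interval 24.4 to 71.1, counting error only) and 8 of 84 non-cycling cells (9.52%, 4.20 to 17.9). The highest Eomes value was 367.3 TPM in cycling cells and 2744 TPM in non-cycling cells. Of 11 neuroblast genes 3 were higher (0.71). Dcx, a microtubule protein of immature neurons, was seen in 1 of 19 cycling cells and 2 of 84 non-cycling cells.

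Eomes lay mostly in other cycling cells than Sox2 and Cdc20. At 10 TPM or more, Eomes was in 9 of 19. Sox2 was at 10 TPM or more in 8 of 19, together with Eomes in 1 (C140). Of the 9 cells with Cdc20 at 10 TPM or more, 2 had Eomes at that level. Of the 6 cells with Ccne2 at that level, 5 had Eomes. Eomes was highest in C36 (367.3 TPM), C135 (171.5 TPM) and C119 (156 TPM). The intermediate progenitor mean was highest in C79 (5.71), C126 (5.23) and C135 (4.49), whose scores of 7.18, 5.38 and 6.09 lay in the middle of the cycling range. These are counts over 19 cells from an unknown number of animals, with no test.

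**Figure D5:**
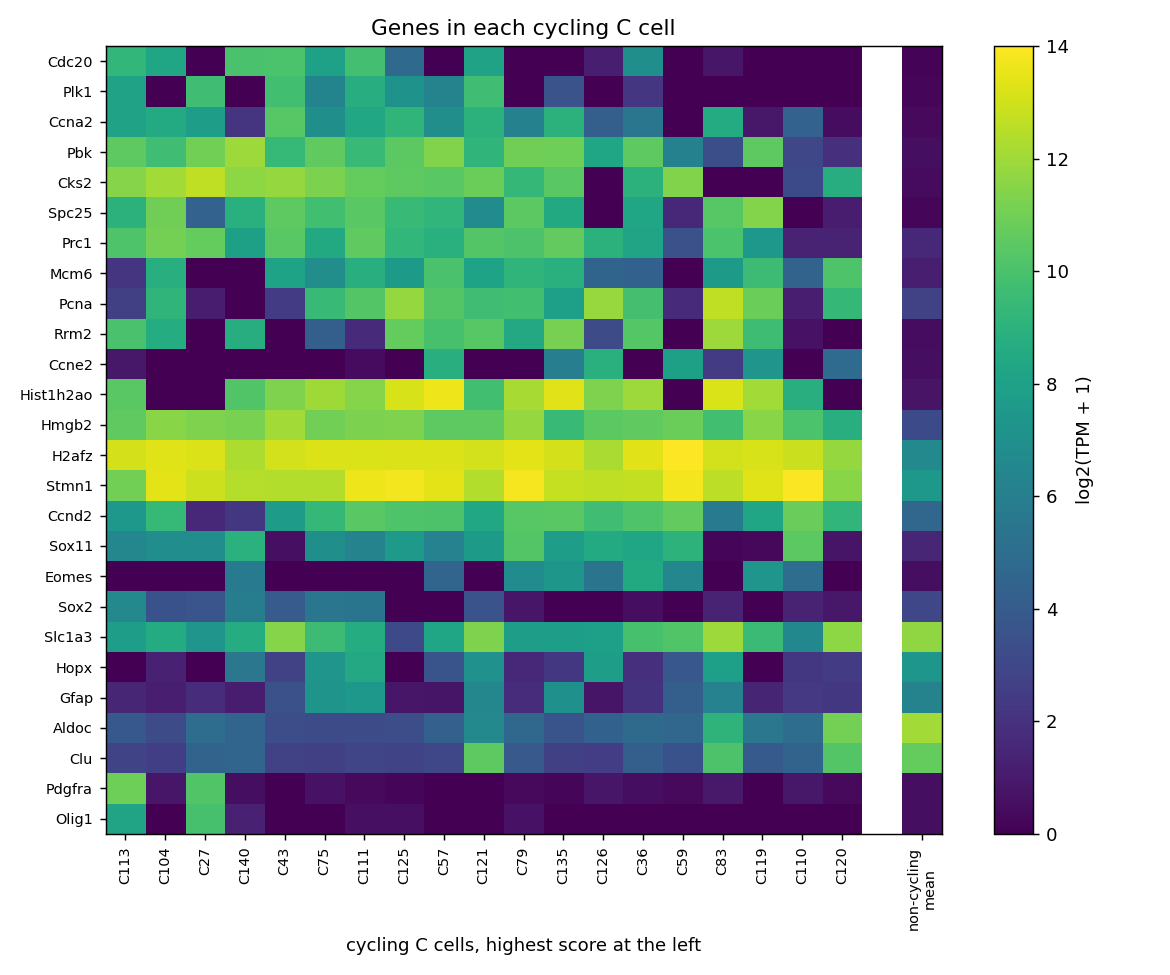
Level (colour, log2(TPM + 1)) of selected genes in each of the 19 cycling C cells, ordered by score from the left, with the mean of the 84 non-cycling cells in the last column. Cdc20 is mostly bright at the left and Eomes mostly at the right, and Pdgfra and Olig1 are bright in C113 and C27 alone.

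Outside the 33 lists drawn up by function or cell type, the genes furthest above non-cycling cells were 1190002F15Rik, Hist1h2ao, Cdca3, Tmsb10, 2810417H13Rik, Hist1h2ag, Prdx4, Neil3, Naa38 and 2700094K13Rik, with differences from 9.36 to 5.34. Hist1h2ao and Hist1h2ag belong to the histone set that was added by symbol. RefSeq lists 1190002F15Rik as the long noncoding RNA Lockd. It was the gene with the largest difference of all, at 0 to 4171 TPM in cycling cells (median 1282) and 0 to 804.6 TPM in non-cycling cells (median 0). It reached 1 TPM in 18 of 19 cycling cells and 4 of 84 non-cycling cells. RefSeq gives 2810417H13Rik as Pclaf, the PCNA-associated factor, and 2700094K13Rik as Selenoh. Neil3, a DNA glycosylase, was seen in 14 of 19 cycling cells and in 1 of 84 non-cycling cells, at 1.13 TPM. Tmsb10, an actin-binding thymosin, had medians of 622.5 TPM in cycling cells and 0 TPM in non-cycling cells.

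The remaining lists had medians near 0 on the log2(TPM + 1) scale. Of 11 quiescence transcription factors 1 was higher and 0 lower, Nfix (2.78), a nuclear factor I protein, and the list median was -0.21, or 0.02 with rescaled libraries. Of 15 fatty acid oxidation genes 1 was lower, Acsbg1 (-2.89), an acyl-CoA synthetase (median -0.25). Immediate early and heat shock genes had 0 of 15 higher or lower (median -0.11, or 0.03 with rescaled libraries and -1.08 with log2 of the mean TPM). The mature neuron, oligodendrocyte precursor, oligodendrocyte, endothelial, mural, microglia and erythroid lists had 0 members higher or lower, with medians from -0.37 to 0.22. With log2 of the mean TPM the medians were -1.54 for oligodendrocyte, -2.05 for endothelial, -3.60 for mural and -2.37 for erythroid genes. Single non-cycling cells lay far above their set in such genes. The mural sum had a median of 1.83 TPM and a highest value of 86210 TPM in non-cycling cells. In cycling cells its median was 9.64 TPM and its highest value 157 TPM. How far single cells set these list medians was not tested. The highest summed level of mature neuron markers was 303 TPM in cycling cells and 4460 TPM in non-cycling cells, and that of microglial markers was 159 TPM in cycling cells and 561 TPM in non-cycling cells. Among the microglial markers, C1qa and C1qb were listed at 0 and P2ry12, Tmem119 and Itgam stayed below 1 TPM in every cycling cell. Cx3cr1, a chemokine receptor, was seen at 1 TPM in 14 of 19 cycling cells (highest 16.4 TPM) and 55 of 84 non-cycling cells (highest 131.7 TPM). C1qc was seen in 2 cycling cells (highest 149.9 TPM), and Csf1r and Aif1 in 1 cycling cell each, at 4.77 and 2.03 TPM.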

How the data were processed

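Per the labels' protocols, libraries followed a NuGEN Ultralow V2 protocol. The table that the authors deposited gives TPM per gene, and the submitters' processing notes name RSEM and mm9. Versions, aligner, annotation and cell filters: not given in the sources used here. TPM keeps no depth. Values of 0 made up 78.5% of the table and may include failed estimates, since Gapdh was at 0 in 2 libraries. The 172 columns are 142 C, 26 N and 4 R libraries. RSEM divides shared reads among gene copies. Of 173 samples, 171 match 1 column by title, and the column C27, a cycling cell, fits 2 titles. Doublets were not called, and 0 pairs of libraries were identical.

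Values were analysed as log2(TPM + 1), a scale that understates changes of low genes, for genes with a TPM of at least 1 in at least 5% of libraries (12007 of 23307, 11999 outside the score). Cycling minus non-cycling means were taken, with a call at a difference of 2, and no p-value. The calculation was checked by adding known shifts to the log2 values of non-cycling libraries. This checks the arithmetic only, not the calls. The members and the 33 gene lists were chosen with earlier results of these data known, and 2 lists (ribosome, histones) were added by symbol. List means per cell use members past the filter. Named genes are 18 set genes, the extreme members of each list (up to 4 where at least 50% of members were called), and, outside the 33 lists, the 10 genes furthest above and the 10 furthest below 0 that were seen in at least 50% of the cells of the higher set. Some genes that this rule names are not reported here. Single markers and single cells in the descriptions of cell spread were chosen after their values were seen. Intervals are exact Clopper-Pearson and cover counting error only. Promoters are from RefSeq on GRCm38.p6, a later build than mm9, and were matched by symbol or synonym (9522 of 11999 genes). Python 3.11.15, pandas 2.3.3, numpy 2.4.6 and scipy 1.17.1 were used. Alternatives were pseudocounts, the filter, library scaling, score limits, scores of 4 genes, library exclusions and centring.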

Additional observations from a re-analysis of the deposited data

How the results depend on the processing

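The main counts were 758 genes higher and 174 lower. Over the score limits of 4, 2 and 0.5, the 2 scores of 4 genes, the exclusions of libraries and no filter on low values, the higher count ran from 526 to 891, and the lower count from 110 to 217. Among these, the lower count was furthest from the main one with cycling at a score of at least 2, at 110. A pseudocount of 0.1 gave 1403 higher and 304 lower, and a pseudocount of 10 gave 270 higher and 72 lower, since the fold of low genes depends on the pseudocount by construction. Taking log2 of the mean TPM gave 959 higher and 2230 lower, of which 294 of the higher genes were also higher in the main calls. That setting moved the median of all genes to -0.35, and it moved 13 list medians by more than 1 SD. Those of splicing, ribosome and high mobility group genes came to 0.97, 0.51 and 1.34, all below the limit of 2. Those of the mitotic cyclin, spindle, DNA repair and G1 lists came to 6.45, 6.39, 3.01 and 2.15. Those of the endothelial, mural, erythroid, oligodendrocyte, immediate early and Notch lists came to -2.05, -3.60, -2.37, -1.54, -1.08 and -0.88. The cause was not tested. The median of the replication-coupled chromatin list was 3.73 with a pseudocount of 0.1 and 1.48 with a pseudocount of 10. Rescaled libraries gave 891 higher genes and an all-gene median of 0.18, and centring on the median of all genes (added after seeing the data) gave 697 higher and 193 lower. No named gene or list past a difference of 2 turned its sign in any alternative. Of list medians under all alternatives, 545 moved by less than 1 SD and 15 by more. No paired analysis was possible because the numbers in the titles only name cells and both sets come from the same title class. TPM carries no depth, so it cannot be said how far missing reads set the values at 0.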
